A study of Rattus norvegicus with 6 samples.

Results

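The miR-99/100 and miR-125 families were represented by 7 mature microRNAs (miRNAs), chosen by name among the 758 miRNAs of an Agilent rat miRNA array. They were rno-miR-99a-5p, rno-miR-99b-5p, rno-miR-100-5p, rno-miR-125a-5p and rno-miR-125b-5p, and the opposite arms rno-miR-99b-3p and rno-miR-125a-3p, written without the species prefix from here on. All 7 met the detection filter, which 230 of the 758 miRNAs met. They were measured in terminal hindgut of Sprague Dawley rat fetuses at embryonic day 20, as 3 samples with anorectal malformation (ARM) and 3 control samples, each on 1 single-colour (Cy3) array. In the ARM group, 4 pregnant dams had been given 1% ethylenethiourea (ETU, which causes anorectal malformations in fetal rats) on gestational day 10, at 125 mg/kg through a stomach tube, and fetuses were sorted by the presence of the malformation under a light microscope. Control dams received distilled water. The RNA came from 1 cm of whole hindgut, so that fewer cells of a type and less RNA per cell cannot be told apart, and neither can the drug and the malformation. The labels do not give the dam of a sample or the number of fetuses in it, and the p-values therefore measure only the spread between these samples.

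A miRNA is cut from a hairpin precursor that can release a mature strand from its left (5p) and its right (3p) arm, and bases 2 to 8 of the strand, the seed, do most of the pairing with target mRNAs. miR-125 is the vertebrate counterpart of lin-4, the miRNA that times larval development in Caenorhabditis elegans, and its targets in mammalian cells include Lin28, an inhibitor of let-7 maturation. miR-99 and miR-100 are known in human cells as repressors of mTOR and of the IGF1 receptor, which drive growth. In vertebrates the families are encoded together with a let-7 gene in paralogous clusters, and miR-125b is made from precursors in a pair of them.

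The mature sequences below, from the RefSeq table of assembly GRCr8, are shown because they define the families: the seeds are in capitals, and each strand is written 5′ to 3′. The table matched 6 of the 7 members, and miR-99a-5p is given by name only. The 6 strands carry 4 distinct seeds, and the first pair shares 1, as does the second.
miR-99b-5p: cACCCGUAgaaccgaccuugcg
miR-100-5p: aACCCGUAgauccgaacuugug
miR-125a-5p: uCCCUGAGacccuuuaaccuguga
miR-125b-5p: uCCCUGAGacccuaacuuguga
miR-99b-3p: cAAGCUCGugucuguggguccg
miR-125a-3p: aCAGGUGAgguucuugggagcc

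miR-99b-5p and miR-100-5p differed at 4 of 22 positions, and 3 edits (substitutions, insertions or deletions) turned miR-125a-5p, of 24 bases, into miR-125b-5p, of 22. Signal shared between strands this alike (cross-hybridisation) was not tested. Nor was it tested for miR-99a-5p, whose distance from the other strands was not measured because its sequence was not matched. The other arms had seeds of their own and formed no pair with each other. On GRCr8, miR-99b-5p lay at chr1:67350070-67350091 and miR-99b-3p at chr1:67350108-67350129 on the plus strand. miR-125a-5p lay at chr1:67350689-67350712 and miR-125a-3p at chr1:67350727-67350748 on the same strand. miR-100-5p lay at chr8:50798307-50798328, and the copy of miR-125b-5p from Mir125b2 at chr11:29732588-29732609, both on the plus strand.

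The annotation placed the precursors in 3 clusters. Mir99b, Mirlet7e and Mir125a spanned 696 bases of chromosome 1 inside the interval of Spaca6, a protein-coding gene. Mir100, Mirlet7a-2 and Mir125b1 spanned 51828 bases of chromosome 8 inside Mir100hgl and Lnc215. Mir99a, Mirlet7c1 and Mir125b2 spanned 45268 bases of chromosome 11 inside LOC103693508, a long non-coding RNA. The hairpins of Mir99b, of 70 bases, and Mir125a, of 85, are shown because both of their arms were measured, and the arms are in capitals.
Mir99b: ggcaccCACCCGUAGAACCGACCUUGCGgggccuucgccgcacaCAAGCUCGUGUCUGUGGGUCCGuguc
Mir125a: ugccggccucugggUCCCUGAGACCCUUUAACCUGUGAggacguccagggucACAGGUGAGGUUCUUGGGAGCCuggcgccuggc

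Each array held 12843 features, 12128 of them miRNA spots, none saturated, and 207 to 246 miRNAs were detected per array. Arrays were scaled to a common 75th percentile, taken over 300 probes that every array detected, which before scaling was 203 to 221 on ARM arrays and 225 to 290 on control arrays. A level below is the mean log2 of the scaled intensity over the probes of a miRNA. Triplets of values give replicates 1, 2 and 3 in that order. Levels are compared between samples for 1 miRNA, since different probes do not share a scale. Across the 230 tested miRNAs, control replicate 3 had a correlation of 0.96 with ARM replicate 1, above its 0.941 and 0.948 with the other control arrays. ARM replicate 3 was the only array of its slide. The tissue's defining markers were present, with 7 of 9 intestinal epithelial and 2 of 3 smooth muscle miRNAs detected on all 6 arrays.

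Of the 7 members, miR-99a-5p and miR-99b-3p were lower in ARM, none was higher, and 5 did not pass the test (limma, adjusted p below 0.05 over the 230 tested miRNAs). At an unadjusted p below 0.05 the same counts were 2 lower and 0 higher, against 52 and 42 among all 230 tested miRNAs. The background of calls in the same direction was 11.3% of all tested miRNAs (26 of 230), against 2.17% called higher. The median difference of the members, ARM minus control, was -0.32 on the log2 scale, and that of all tested miRNAs was 0.17. The groups did not overlap for the same 2 members, 28.6% of 7, and for 22.6% of all tested miRNAs in that direction. The 2 calls therefore came from different hairpins and different arms, and the 5p strand of miR-99b was not called with its 3p strand.

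**Figure D1:**
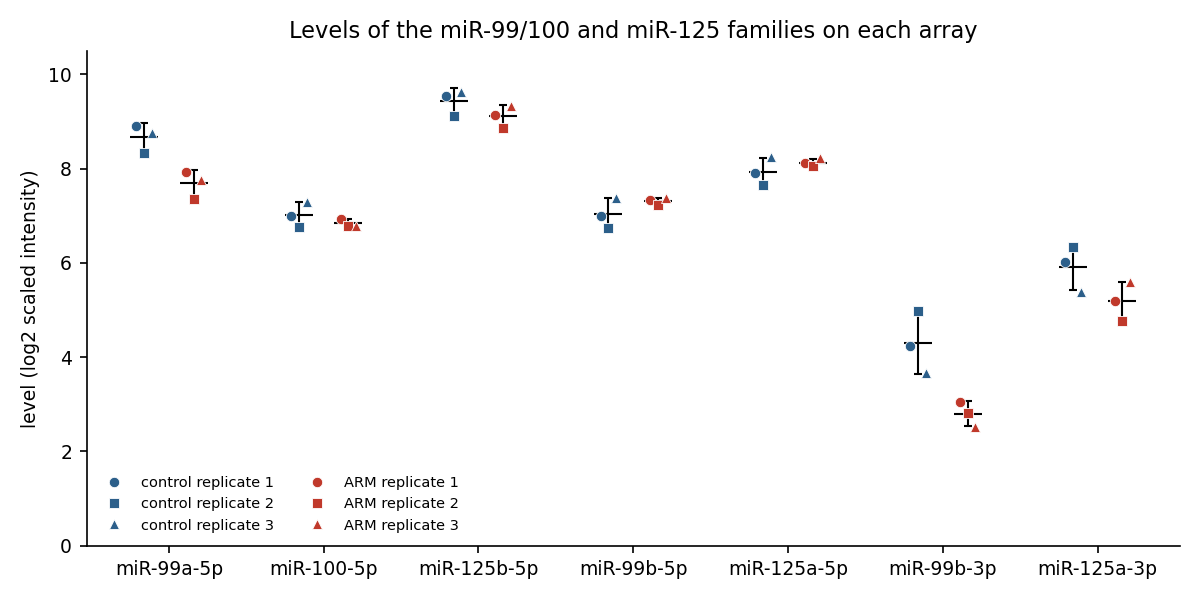
Level of each member (log2 of the scaled intensity) on the 3 control arrays (blue) and the 3 ARM arrays (red), with symbols for replicates and black marks for the mean ± SD; levels of different miRNAs do not share a scale. ARM points lie below all control points for miR-99a-5p and miR-99b-3p, and the groups overlap for the other 5.

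miR-99a-5p, from the chromosome 11 cluster, was about 1.97 times as high in control as in ARM hindgut. Its levels were 7.94, 7.36 and 7.76 on the ARM arrays and 8.91, 8.33 and 8.76 on the control arrays. All ARM samples were below all control samples, and the lowest of each group was replicate 2. Group means were 7.69 ± 0.29 and 8.67 ± 0.30 (SD, n = 3 each), and ARM differed by -0.98 (SE 0.24; 95% confidence interval -1.53 to -0.43; limma, adjusted p = 0.0386).

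Both probes of miR-99a-5p gave this difference. Probe 1 read 161, 115 and 154 intensity units before scaling on the ARM arrays and 458, 293 and 314 on the control arrays. Probe 2 read 272, 184 and 262 against 753, 482 and 533. The order of the samples was the same within ARM on both probes, and control replicate 1 was the brightest array on each. After scaling, both probes differed by -0.98, with SEs of 0.23 and 0.24 (limma over 390 tested probes, adjusted p = 0.0391 and 0.0396).

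The call on miR-99a-5p was close to the threshold and was lost when any array but control replicate 3 was left out. Within slide 1, without ARM replicate 3, the difference was -1.02 and was not called (limma, adjusted p = 0.0888). It was also not called without ARM replicate 1 or 2 or without control replicate 1 or 2 (-1.15 to -0.82; limma, adjusted p = 0.0579 to 0.143). Without control replicate 3 it was -0.93 and was called (limma, adjusted p = 0.0459).

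miR-100-5p, whose precursor lies in the chromosome 8 cluster, had levels of 6.94, 6.79 and 6.79 on the ARM arrays and 6.98, 6.77 and 7.30 on the control arrays. The groups overlapped, and control replicate 3 was the highest sample. Group means were 6.84 ± 0.09 and 7.02 ± 0.27 (SD, n = 3 each), and ARM differed by -0.18 (SE 0.19; 95% confidence interval -0.64 to 0.28; limma, adjusted p = 0.463). Before scaling its probe 1 read 71.7, 66.9 and 71.1 on ARM arrays and 106, 88.6 and 103 on control arrays, with no overlap, so that the separation of the deposited intensities was lost when the arrays were scaled.

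miR-125b-5p is the product of precursors on chromosomes 11 and 8, which this strand cannot tell apart. Its levels were 9.14, 8.86 and 9.34 on the ARM arrays and 9.54, 9.13 and 9.63 on the control arrays. ARM replicates 1 and 3 lay above control replicate 2, and replicate 2 was the lowest of each group. Group means were 9.11 ± 0.24 and 9.43 ± 0.27 (SD, n = 3 each), and the difference of -0.32 did not pass (SE 0.22; 95% confidence interval -0.83 to 0.19; limma, adjusted p = 0.268). The interval holds 0. Its probe 2 read 1431, 1221 and 1679 on ARM arrays before scaling and 2629, 1934 and 2202 on control arrays, again without overlap until the arrays were scaled.

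miR-99b-5p, from the compact chromosome 1 cluster, stood at 7.32, 7.22 and 7.37 on the ARM arrays and at 7.0, 6.74 and 7.39 on the control arrays. The ARM samples were close together, and control replicate 3 lay just above them. Group means were 7.30 ± 0.07 and 7.04 ± 0.32 (SD, n = 3 each), and the difference of 0.26 did not pass (SE 0.21; 95% confidence interval -0.23 to 0.75; limma, adjusted p = 0.340). Without scaling the difference was -0.05.

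miR-125a-5p, cut from the neighbouring hairpin, had levels of 8.11, 8.05 and 8.22 on the ARM arrays and 7.91, 7.66 and 8.24 on the control arrays. As for miR-99b-5p, 2 control samples lay below all ARM samples and control replicate 3 lay above them. Group means were 8.12 ± 0.09 and 7.94 ± 0.29 (SD, n = 3 each), with a difference of 0.19 (SE 0.20; 95% confidence interval -0.28 to 0.66; limma, adjusted p = 0.463). Without scaling it was -0.13.

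The let-7 miRNAs of the 3 clusters, which promote the exit from early developmental states, are the third partner of each precursor group. None of the 8 let-7 family miRNAs tested was called in either direction (limma; 13.5% of all tested miRNAs were called). At an unadjusted p below 0.05 there was 1, against 94 of all 230 tested miRNAs. Of the 8 differences 6 were positive, as were 137 of the 230. The 8 had a median of 0.18 and ranged from -0.52 to 0.30, where the median of all tested miRNAs was 0.17. In the chromosome 11 cluster let-7c-5p had levels of 8.83, 8.60 and 8.91 in ARM and 9.39, 8.97 and 9.52 in control samples. Its groups did not overlap, but the difference of -0.52 did not pass (SE 0.21; limma, adjusted p = 0.110). In the chromosome 1 cluster let-7e-5p differed by 0.18 (SE 0.24; limma, adjusted p = 0.560), and let-7a-5p, which has a precursor in the chromosome 8 cluster and others elsewhere, by 0.19 (SE 0.20; limma, adjusted p = 0.461). The 3 miRNAs with a precursor in the chromosome 11 cluster thus all had negative estimates, from -0.98 to -0.32, and the 3 main strands of the chromosome 1 cluster all had positive estimates, from 0.18 to 0.26. Of these 6 only miR-99a-5p passed, and the signs of miR-99b-5p and miR-125a-5p turned without scaling. Scaling shifts all bright miRNAs of an array alike, so let-7e-5p, with a smaller estimate than miR-125a-5p, turned as well. The positive estimates lay near the median of all tested miRNAs, 0.17. In the chromosome 8 cluster the signs were mixed, with miR-100-5p at -0.18 and let-7a-5p at 0.19. The 3p arms of the chromosome 1 cluster had negative estimates, -1.50 for miR-99b-3p and -0.72 for miR-125a-3p. The array reads mature strands, so the part of the chromosome 11 precursors in let-7c-5p and miR-125b-5p was not measured. let-7b-5p, with no precursor annotated in these clusters, was also lower without overlap and did not pass (-0.41; limma, adjusted p = 0.149). Of the same family, miR-98-5p was higher without overlap and did not pass either (0.29; limma, adjusted p = 0.211). Within slide 1 the estimates of the members of these clusters kept their signs, with miR-125b-5p at -0.43, miR-100-5p at -0.15, miR-99b-5p at 0.23 and miR-125a-5p at 0.14, and none was called (limma, adjusted p = 0.273 to 0.679).

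**Figure D2:**
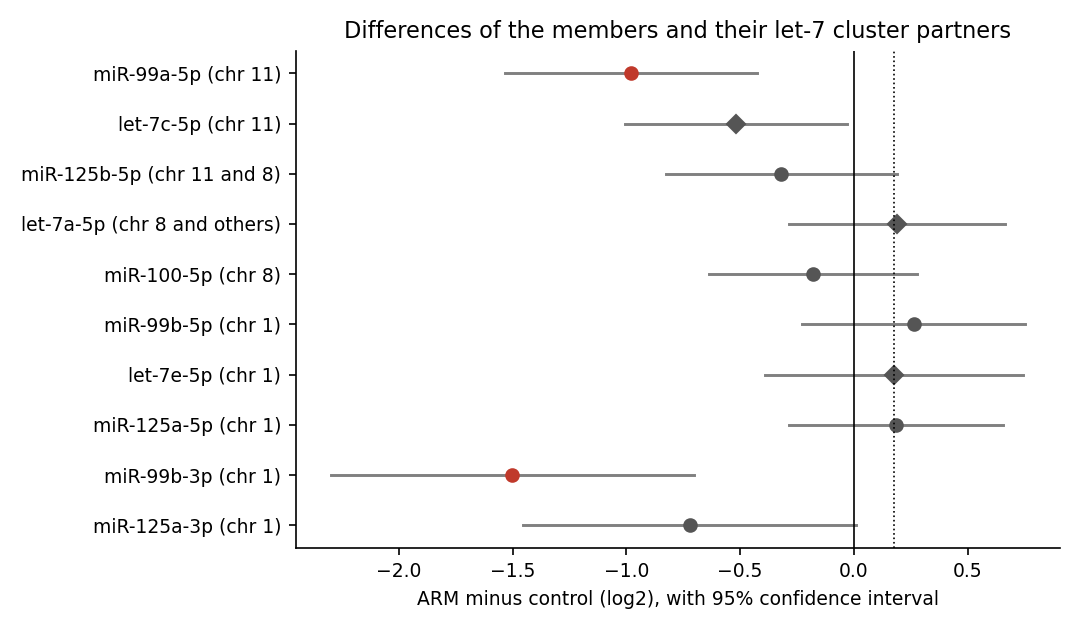
Difference ARM minus control (log2, x axis) with its 95% confidence interval for the members (circles) and the let-7 miRNAs of the 3 clusters (diamonds), with the chromosomes of their precursors; red marks an adjusted p below 0.05, and the dotted line is the median of all tested miRNAs, 0.17. miR-99a-5p and miR-99b-3p lie to the left, and the 5p strands of chromosome 1 lie near the dotted line.

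miR-99b-3p, the right arm of the Mir99b hairpin, had the most negative estimate of the 7 members and was detected on 5 of the 6 arrays, the other members on all 6. Its levels were 3.06, 2.81 and 2.53 on the ARM arrays and 4.24, 4.99 and 3.67 on the control arrays. All ARM samples were below all control samples, and control replicate 3 was the control nearest to them. Group means were 2.80 ± 0.26 and 4.30 ± 0.66 (SD, n = 3 each), and ARM differed by -1.50 (SE 0.34; 95% confidence interval -2.30 to -0.70; limma, adjusted p = 0.0386).

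The 4 probes of miR-99b-3p did not agree in size. Probes 1 to 3 were well above background on control replicates 1 and 2 alone, and were therefore not tested singly. Probe 1 read 4.32, 4.55 and 3.30 intensity units before scaling on the ARM arrays and 22.0, 38.9 and 15.5 on the control arrays. Against the lowest detected signal of each ARM array, the control mean was 1.49-fold higher for probe 1 and 1.21-fold for probe 3, and for probe 2 not above 1. These ratios set the mean of the control group, over all its replicates, against the array's lowest detected probe wherever the ARM probe itself was dimmer. Control replicate 3 enters that mean although it was not well above background on these probes, so the ratios are not strict lower bounds. The larger measured differences of probes 1 to 3, -2.25, -1.73 and -1.36, lie on signals of ARM arrays that were not well above background.

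Probe 4 of miR-99b-3p was detected on 5 arrays, all but ARM replicate 1, and it read 14.7, 16.5 and 16.8 on ARM arrays and 34.2, 44.1 and 21.1 on control arrays before scaling. The groups did not overlap. Its difference was -0.67 after scaling, and it was not called (SE 0.23; limma over probes, adjusted p = 0.0877). The call on miR-99b-3p was also absent with a floor of 10 in place of 1 (-0.81; limma, adjusted p = 0.0898) and with normexp background correction (-0.07; limma, adjusted p = 0.554), both of which raise the values of dim spots by construction. The normexp setting added an offset of 50, above the highest reading of probe 4, 44.1. Within slide 1, without ARM replicate 3, the difference was -1.37 and was not called (limma, adjusted p = 0.0888). Without control replicate 3 it was -1.82 and was called (limma, adjusted p = 0.0123), and leaving out any other single array ended the call (limma, adjusted p = 0.0531 to 0.129).

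miR-125a-3p, the right arm of Mir125a, had levels of 5.20, 4.77 and 5.60 on the ARM arrays and 6.02, 6.33 and 5.38 on the control arrays. Control replicates 1 and 2 lay above all ARM samples, and control replicate 3 lay among them. Group means were 5.19 ± 0.41 and 5.91 ± 0.48 (SD, n = 3 each), and the difference of -0.72 did not pass (SE 0.31; 95% confidence interval -1.45 to 0.01; limma, adjusted p = 0.121). Without control replicate 3 it was -0.98 and passed (limma, adjusted p = 0.0459), and within slide 1 it was -0.92 and did not (limma, adjusted p = 0.115).

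The 4 probes of miR-125a-3p differed by -0.36, -0.42, -1.31 and -0.80, and none was called. At an unadjusted p below 0.05 there were 2, against 148 of all 390 tested probes (limma). Probe 3 read 57.4, 32.9 and 48.7 on ARM arrays before scaling and 164, 261 and 63.2 on control arrays. Control replicates 1 and 2 stood well above the ARM arrays, and control replicate 3 stood just above ARM replicate 1. Its difference was -1.31 after scaling (SE 0.45; limma over probes, adjusted p = 0.0879). On probe 1 the order was mixed, with 16.6, 16.0 and 38.9 on ARM arrays and 42.7, 36.3 and 26.9 on control arrays.

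**Figure D3:**
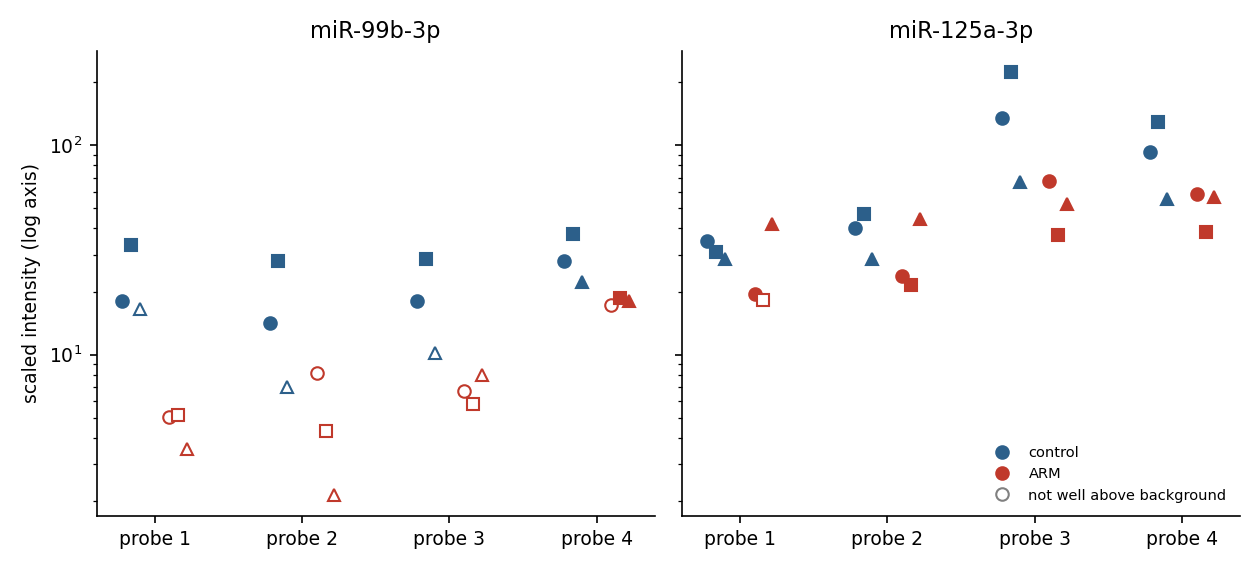
Scaled intensity (log axis) of each of the 4 probes of miR-99b-3p and miR-125a-3p on the 3 control (blue) and 3 ARM arrays (red; circle, square and triangle for replicates 1 to 3); open symbols were not well above background. For miR-99b-3p probes 1 to 3 all ARM points are open, and for miR-125a-3p the spread between probes and control replicates is wide.

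Across the 18 probes of the 7 members, 15 could be tested, 2 were called lower (both of miR-99a-5p) and 0 higher by limma, which called 12.8% of the 390 tested probes lower and 2.05% higher. Before scaling, 9 of the 15 tested member probes (60.0%) read lower on all ARM than on all control arrays, against 32.8% of all tested probes. After scaling 3 of the 15 did (20.0%), both probes of miR-99a-5p and probe 4 of miR-99b-3p, against a background of 22.1% in that direction and 44.6% in either, so that the share of the members was near that of all probes. None was higher without overlap on either scale, and at an unadjusted p below 0.05 the counts were 5 lower and 0 higher. Of all 390 tested probes, 148 had an unadjusted p below 0.05 in either direction (limma). Repeat spots of a probe on 1 array varied with a median coefficient of variation of 5.12% over 94 detected probe and array pairs, with a range of 0.333% to 43.0%.

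The comparison of arms asked whether the 5p and 3p strands of a hairpin moved together. A difference of log2 levels between 2 strands on the same array does not depend on the scaling of the arrays, and its value mixes the response of different probes, so that only its change between groups is read. For miR-99b-5p minus miR-99b-3p it was 4.27, 4.41 and 4.84 on the ARM arrays and 2.75, 1.76 and 3.72 on the control arrays. All ARM samples were above all control samples, and the control range was wider than the difference of the means. Group means were 4.51 ± 0.30 and 2.74 ± 0.98 (SD, n = 3 each), and ARM differed by 1.76 (exact permutation test, two-sided, p = 0.1, which is the smallest that 3 against 3 can give, and 0.125 adjusted over 5 ratios). With normexp and its offset of 50 the same difference was 0.28, with a floor of 10 it was 1.07 and with the brightest probe 0.94.

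For miR-125a-5p minus miR-125a-3p the values were 2.91, 3.27 and 2.62 on the ARM arrays and 1.90, 1.33 and 2.86 on the control arrays. The groups overlapped through control replicate 3. The difference of the means was 0.91 (two-sided exact permutation test, p = 0.2, adjusted p = 0.2).

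Between paralogues, miR-99a-5p was set against its family members. The log2 difference miR-99a-5p minus miR-99b-5p was 0.61, 0.14 and 0.39 on the ARM arrays and 1.91, 1.59 and 1.37 on the control arrays. The ARM samples were all below the control samples, and the means differed by -1.24 (two-sided exact permutation test, p = 0.1, adjusted p = 0.125). For miR-99a-5p minus miR-100-5p it was 1.00, 0.57 and 0.97 in ARM and 1.93, 1.56 and 1.46 in control samples, with no overlap and a difference of -0.80 at the same p. For miR-125b-5p minus miR-125a-5p it was 1.03, 0.82 and 1.12 in ARM and 1.63, 1.46 and 1.39 in control samples, with no overlap and a difference of -0.51 at the same p. In these 3 ratios all ARM values lay below all control values. Among single tested miRNAs the groups did not overlap for 48.7% in either direction, and the share over other ratios was not computed. Within slide 1, with 2 ARM arrays, the 5 differences were 1.60 for the arms of miR-99b, 1.07 for those of miR-125a, and -1.25, -0.86 and -0.57 for the paralogues (two-sided exact permutation test, p = 0.2 for each). None of the 5 ratios passed, since 3 against 3 cannot give a p below 0.1, and a ratio does not say which member moved.

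**Figure D4:**
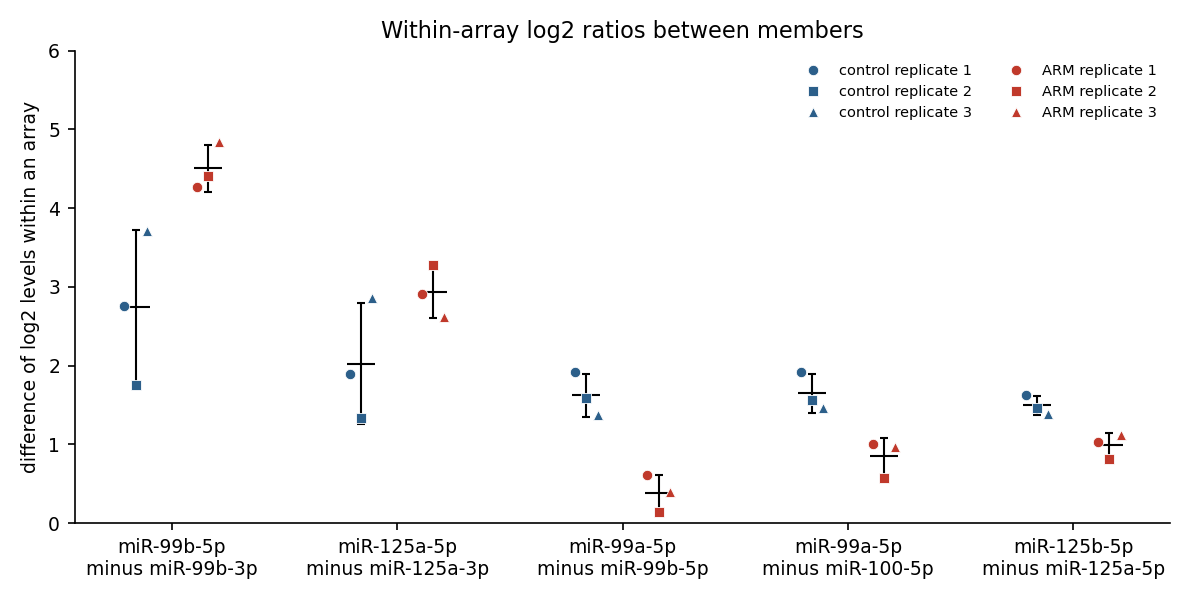
Within-array difference of log2 levels between 2 members (y axis) for the 5 pairs, on 3 control (blue) and 3 ARM arrays (red), with the mean ± SD in black. The groups are apart for all pairs but miR-125a-5p minus miR-125a-3p, where control replicate 3 lies among the ARM samples. The share of other pairs that lie apart was not computed.

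The remaining arms of these precursors on the array were not detected: miR-99a-3p, which shares the seed of miR-99b-3p, and miR-100-3p, miR-125b-1-3p and miR-125b-2-3p were not well above background on any of the 6 arrays. The seed of miR-125a-5p and miR-125b-5p also occurs in miR-351-5p, a miRNA of chrX:137725157-137725181 (minus strand, GRCr8), shown because it is the other strand on the array with that seed and differs from miR-125b-5p by 9 edits.
miR-351-5p: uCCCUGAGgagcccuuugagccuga
It was detected on 1 ARM and 3 control arrays through 1 of its 4 probes, and its difference of -0.37 did not pass (SE 0.21; limma, adjusted p = 0.208). That difference averages over the probes that no array detected. The detected one, probe 4, differed by -0.76 and was not called (SE 0.25; limma over probes, adjusted p = 0.0841).

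miR-10a-5p and miR-10b-5p, which lie among the Hox genes and resemble miR-100-5p in sequence (3 edits for miR-10a-5p), had positive estimates. miR-10b-5p had levels of 7.44, 7.30 and 8.30 in ARM and 6.22, 6.68 and 6.23 in control samples, and was higher by 1.30 (SE 0.30; limma, adjusted p = 0.0386). miR-10a-5p was at 8.86, 8.74 and 8.60 in ARM and 7.51, 7.94 and 8.47 in control samples, and its difference of 0.76 did not pass (SE 0.26; limma, adjusted p = 0.0793). The groups did not overlap for either, while miR-100-5p differed by -0.18.

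The likeness of patterns was measured by the root mean square difference of mean-centred log2 levels over the 6 arrays, as a description. Leaving out the 7 members, the tested miRNAs nearest to miR-99a-5p were miR-322-5p (0.235), miR-22-3p (0.241) and miR-379-5p (0.255), and those nearest to miR-100-5p were miR-23a-3p (0.0416), miR-24-3p (0.0776) and miR-199a-3p (0.0879). Among these other miRNAs, miR-125b-5p was nearest to miR-199a-5p (0.106), let-7c-5p (0.111) and miR-140-3p (0.111). On the same terms miR-99b-5p was nearest to let-7a-5p (0.0865), let-7e-5p (0.0887) and miR-26a-5p (0.105), and miR-125a-5p to miR-149-5p (0.0906), let-7a-5p (0.0931) and miR-652-3p (0.104). Among the members, miR-99b-5p and miR-125a-5p, from hairpins of 1 cluster, differed by 0.0478, below the values just given for either. miR-99a-5p and miR-125b-5p, which share a cluster on chromosome 11, differed by 0.357. All 6 arrays and their scaling enter every one of these values, and a near pattern brings a near difference with it. Among the miRNAs nearest to miR-99a-5p, miR-322-5p (-1.09) and miR-379-5p (-0.85) were also called lower in ARM (limma, adjusted p = 0.0330 and 0.0389). miR-22-3p (-0.58) was not called (limma, adjusted p = 0.0977).

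Markers of other tissues differed between the groups in either direction, and those called, of striated muscle, erythroid cells and liver, were lower in ARM. Of 8 striated muscle miRNAs, 4 of the 5 tested were lower in ARM (11.3% of all tested miRNAs were) and 3 were detected on no array (miR-208a-3p, miR-208b-3p and miR-499-5p); their summed scaled intensity was 171 to 353.8 on ARM and 1025 to 4276 on control arrays, with control replicate 3 the lowest control. Of 3 erythroid miRNAs both tested ones were lower, with sums of 76 to 118.6 and 228.2 to 408.2, and miR-144-3p was detected on no array. The liver miRNA miR-122-5p was lower, at 2.63 to 25.2 against 114 to 229. The 9 intestinal epithelial miRNAs had positive estimates with none called (8 at an unadjusted p below 0.05), and sums of 1944 to 3134 and 609.7 to 1751. The 3 mesenchymal miRNAs had negative estimates with none called (0 at an unadjusted p below 0.05), and sums of 2687 to 3248 and 3256 to 4262. The smooth muscle miRNAs had sums of 1004 to 1065 and 603.9 to 1051, the leukocyte miRNAs 49.5 to 78.9 and 52.6 to 59.9, the endothelial miRNAs 242 to 274 and 240 to 304, and the neural miRNAs 56.2 to 67.8 and 69.7 to 98.4, on ARM and control arrays respectively, with no member called (limma; 2 at an unadjusted p below 0.05). Of the 7 neural miRNAs 1 was tested, miR-128-3p (-1.39; limma, adjusted p = 0.0585), and 4 were detected on no array. Mean levels of miR-9a-5p, miR-124-3p, miR-138-5p and miR-219a-5p were higher in ARM, and those of miR-132-3p and miR-338-3p lower. The neural sums therefore do not give a direction for the neural miRNAs as a set. The part of these tissues in the values of miR-99a-5p and miR-99b-3p was not tested.

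The scanner software also wrote a total gene signal, a sum over the probes of a miRNA, and there miR-99b-3p ran the opposite way. It was 235.4, 166.2 and 231.0 on the ARM arrays and 25.4, 39.4 and 9.78 on the control arrays, and after scaling miR-99b-3p was higher in ARM by 3.40 (limma, adjusted p = 0.0298). The totals of its own 4 probes summed to only 8.48, 8.12 and 8.04 on the ARM arrays and to 25.4, 39.4 and 14.1 on the control arrays. With that sum in place of the total gene signal, the difference was -1.32 (limma, adjusted p = 0.0203), a setting chosen after these totals were seen.

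On the ARM arrays the total gene signal of miR-99b-3p was close to that of miR-99a-5p, which was 231.5, 161.7 and 226.4. The remainder after subtracting it was 3.92, 4.46 and 4.57, and the total of miR-99b-3p's own probe 4 was 3.92, 4.46 and 4.57, equal to within 0.00066 on each array. Thus the deposited total of miR-99b-3p on ARM arrays equalled the total of another member plus its own probe 4. Of 1380 pairs of a tested miRNA and an array, 295 (21.4%, in 77 miRNAs) had a total gene signal above 1.5 times the sum of their own probes. Among the members this held for miR-99b-3p on the 3 ARM arrays, 3 of 42 pairs. The levels in the earlier paragraphs come from the processed intensities of the spots.

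**Figure D5:**
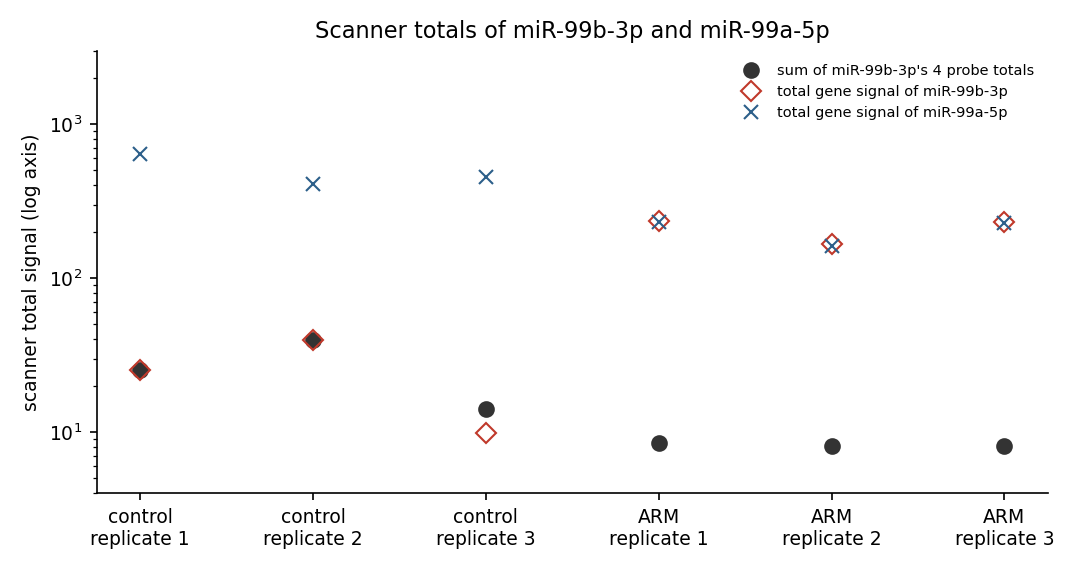
Scanner totals (log axis) on each array: the total gene signal of miR-99b-3p (open diamonds), the sum of its own 4 probe totals (black circles) and the total gene signal of miR-99a-5p (blue crosses). On the 3 ARM arrays the diamonds lie on the crosses, at 166.2 to 235.4, and the circles lie at 8.04 to 8.48.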

How the data were processed

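Intensity values were deposited as made by Agilent Feature Extraction 10.7.1.1, per the file headers, with background subtracted and no scaling between arrays; the series' value table held the same linear intensity (largest difference 0), whose column medians were 2.10, 2.61 and 2.84 (ARM arrays) and 2.44, 3.16 and 1.84 (control arrays). Its scale is linear, not centred, and has no direction. Control spots and outlier-flagged spots (1111 to 1202 per array) were left out, and the rest averaged per probe. Detection of a probe required a share of 0.5 or more of its spots well above background. Arrays were scaled to their 75th percentile, over 300 probes detected on every array, floored at 1, converted to log2 and averaged over the probes of a miRNA. miRNAs with a probe detected on at least 3 of the 6 arrays were tested with limma 3.58.1 (lmFit and eBayes, R 4.3.3, Benjamini-Hochberg, threshold 0.05); the fit was tested on simulated data. Within-array ratios used the exact permutation test. The number of arrays limits the precision. Sequences and coordinates come from RefSeq GRCr8. The members, lists and tests were chosen with earlier results of these data known. Named were the members, the let-7, seed and miR-10 relatives, the other arms of their precursors, cell type markers and the 3 nearest miRNAs by pattern. Alternatives covered scaling, background correction, floor, probe summary, detection filter, left-out arrays, slide, replicate block and array weights; keeping flagged spots and the sum of own probe totals were added after seeing the data. Groups and replicate numbers come from the sample titles.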

Additional observations from a re-analysis of the deposited data

How the results depend on the processing

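With 3 arrays a group, single calls sat near the threshold. The 31 called miRNAs (5 higher, 26 lower) became 38 (10 and 28) with quantile normalization, 31 (1 and 30) without scaling, 16 with normexp, 50 with the sum of own probe totals, 87 with array weights and 0 to 92 when 1 array was left out (where 0, limma gave 62 to 78 at an unadjusted p below 0.05). They became 0 (limma) with slide as a block, within slide 1, with the replicate block and without the detection filter, where 73 to 134 had an unadjusted p below 0.05. Slide as a block and within slide 1 gave the same values as leaving out ARM replicate 3, the only array of its slide. The 2 called members, both lower, became 1 lower with normexp, a floor of 10, the brightest probe or probes detected on all arrays, 1 with the total gene signal (miR-99b-3p as higher, with miR-99a-5p not called, limma adjusted p = 0.067), 3 with array weights, 0 to 3 with 1 array left out, and 0 in the other settings that called nothing (2 to 3 at an unadjusted p below 0.05). With probes detected on all arrays, 6 members were tested, and miR-99b-3p was not among them. The 58 called probes became 20 with normexp, 150 with array weights, 0 to 147 with 1 array left out and 0 under the slide, within-slide, replicate block and no-filter settings; the 2 member probes became 1 with the percentile over all probes, 5 with array weights, 0 to 5 with 1 array left out and 0 in those 4 settings (4 to 6 at an unadjusted p below 0.05). Without scaling, which moved the median of all tested miRNAs from 0.17 to -0.13, miR-99b-5p was at -0.050 (probes -0.049 and -0.051) and miR-125a-5p at -0.13 (probes -0.11 and -0.15). Probe 1 of miR-125a-3p was at 0.045 with normexp. With the total gene signal miR-99b-3p was at 3.40 and its arm ratio at -3.31, where that total holds the total of miR-99a-5p on ARM arrays. miR-99a-5p ranged from -1.29 to -0.80 over 21 settings and was not called in 10, which count that same fit under each of its names. Samples of 1 number did not deviate together (correlations -0.0666, -0.284 and -0.21), and with the replicate block miR-99a-5p and miR-99b-3p both had an adjusted p of 0.112 (limma). Apart from the values printed here, the cause of a lost call was not tested. Signal near background limits the values of miR-99b-3p and miR-351-5p.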
